A study of Mus musculus with 4 samples.

Results

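The TNF superfamily ligands and receptors examined here were 35 mouse genes, 17 ligands and 18 receptors, taken by symbol from the 23480 genes of the series after their Entrez identifiers had been matched to RefSeq symbols. The membership was a list of names, chosen with earlier results of these data known. The series holds 4 RNA-seq libraries of mouse T cells, 2 labelled Th9 and 2 labelled Th9+TLA1. Th9 conditions turn naive helper T cells into cells known for making interleukin 9, and the second group carried the same conditions with TLA1, which the series title writes as TL1A, a ligand of the family studied here. The labels used here name the cells only as T cells and give no strain, age, sex, dose or time of culture, and nothing in them says that the 2 libraries of a group came from separate animals or cultures. The spread that the p-values rest on is therefore that between libraries and may be technical.

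Ligands of the TNF superfamily are mostly trimeric proteins on the cell surface, some of them released, and their receptors carry cysteine-rich repeats outside the cell. Some receptors have a death domain inside the cell, through which they can bind the adaptors FADD or TRADD and lead to caspase activation or to NF-kB signalling. Most of the others bind TRAF proteins directly and lead to NF-kB and MAP kinase signalling, and in T cells several of them act as costimulatory receptors. TL1A, the product of Tnfsf15, binds DR3, the death-domain receptor encoded by Tnfrsf25.

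Reads counted in genes came to between 2979482 and 4041633 per library, and 12122 to 12534 genes were seen by 1 read or more. The floor of detection was set at 3 reads, or 0.742 to 1.007 CPM, a unit in which each library's reads are scaled to the same total. Reads from amplified cDNA are not independent molecules, so this floor covers counting error only. The T cell label was met by the markers, since all 7 T cell genes examined had over 3 reads in every library, with summed levels of 2630 and 3040 CPM in Th9 and 3496 and 3378 CPM in Th9+TLA1. Of these 7, 6 had both Th9+TLA1 libraries above both Th9 libraries, where 19.1% of all tested genes had. In the remaining 1 both lay below, where 29.0% of all tested genes did. Cd5 was called higher (log2 fold change 1.13, limma adjusted p 0.0204), where 0.891% of all tested genes were. For Cd5 the adjusted p was 0.115 without Th9 replicate 1, 0.127 without Th9+TLA1 replicate 1 and, with low genes filtered again, 0.120 without Th9 replicate 2. Among markers of other cells, 4 of 4 mast cell and basophil genes, 5 of 7 myeloid and dendritic genes and 2 of 3 natural killer genes were at 0 in all libraries. Summed levels were at most 1.98 CPM for the myeloid and dendritic genes and 0.990 CPM for the natural killer genes. The 2 CD8 genes summed to 7.92 to 13.3 CPM.

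The comparison asked how the T cells' own ligands and receptors of this family differed when TL1A had been added. With TL1A, the ligand gene Tnfsf8 and the death-domain receptor gene Fas were called higher, and no member was called lower. Of the 35 members, 25 had enough reads to be tested (12 ligands and 13 receptors), each reaching the filter's level in libraries of both groups. A member was called when its limma p-value, adjusted by the Benjamini-Hochberg method over all 10324 tested genes, was under 0.05. By that rule 2 of 25 members were higher with TL1A, where 0.891% of all tested genes were, and 0 of 25 were lower, where 0.252% were. EdgeR's quasi-likelihood test on the recovered reads also called Fas (adjusted p 0.0495) and Tnfsf8 (adjusted p 0.0360) higher, against 0.804% of all genes. DESeq2 called 4 members higher, against 1.76% of all genes: Fas, Tnfsf8, Tnfrsf8 and Tnfrsf26.

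In 7 of the 25 tested members both Th9+TLA1 libraries lay above both Th9 libraries (Fas, Tnfsf8, Tnfrsf8, Tnfrsf26, Tnfrsf18, Cd27 and Tnfsf14), and in 4 both lay below (Tnfrsf13b, Tnfrsf10b, Tnfrsf1b and Tnfsf11). Over all tested genes the groups were separated in this way, upward, in 19.1% and, downward, in 29.0%, so separated groups were common in these libraries. The log2 fold change of Th9+TLA1 over Th9 was above 0 in 18 of the 25 tested members, with a median of 0.20, beside 48.9% of all tested genes and a median of -0.01. The members' median was 0.40 without Th9 replicate 1 and 0.11 with scaling by total reads alone. All fold changes are on the scale of log2(CPM + 1), which makes those of low genes smaller than they are.

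**Figure D1:**
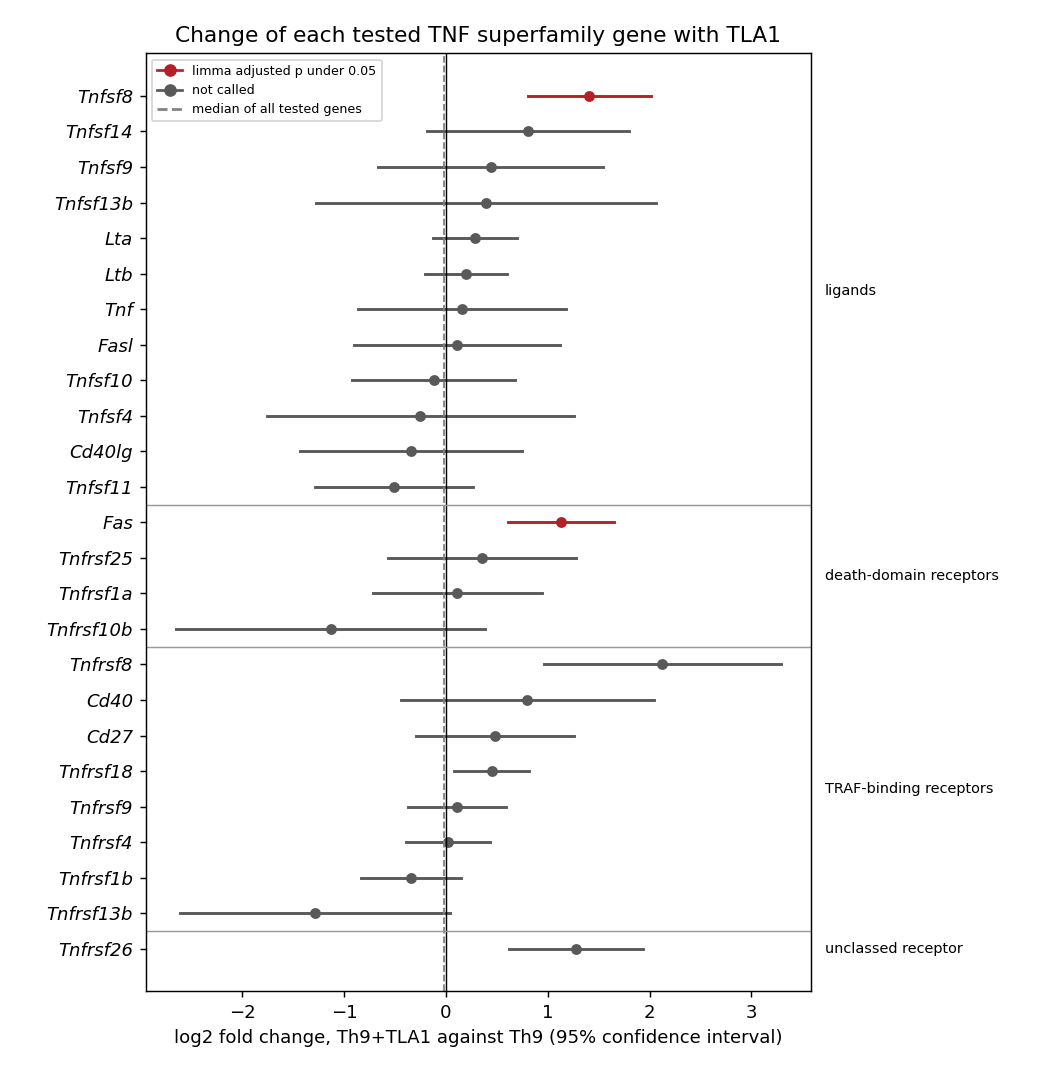
Points give the log2 fold change, Th9+TLA1 over Th9, of each of the 25 tested TNF superfamily genes with its 95% confidence interval, grouped by role; red marks a limma adjusted p under 0.05 and the dashed line the median of all tested genes. Tnfsf8 (1.41) and Fas (1.13) are red, and Tnfrsf8 has the highest estimate (2.13) with a wide interval.

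Tnfrsf25 encodes DR3, the receptor of the added ligand. Its level was 19.3 and 11.7 CPM in Th9 and 17.8 and 18.8 CPM in the Th9+TLA1 libraries, from 78, 37, 53 and 58 reads. Both Th9+TLA1 values lay between the Th9 values, so the groups overlapped. The log2 fold change was 0.35 ± 0.42 (standard error), and limma's adjusted p was 0.738. The 95% interval of the fold ran from 0.673 to 2.43, so neither a fall nor a rise within those bounds was excluded. The cells' own TL1A gene, Tnfsf15, had no more than 3 reads anywhere, with 0 in each Th9 library and 1 and 3 with TL1A. In bulk RNA such as this, fewer cells that carry a transcript and less transcript per cell cannot be told apart.

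Fas, a death-domain receptor whose ligation by Fas ligand can start apoptosis, was the called gene among the 5 death-domain receptors. The gene (Entrez 14102) lies on chromosome 19 from 34290647 to 34327775 of mm10. It had 45.0 and 43.3 CPM in Th9 and 89.9 and 93.8 CPM in the Th9+TLA1 libraries. The means were 44.1 ± 1.26 and 91.9 ± 2.72 CPM (SD, n = 2 each). The groups did not overlap, but 2 libraries give a poor estimate of the spread. Fas rose 2.19-fold, with a log2 fold change of 1.13 ± 0.24 (limma, adjusted p 0.0440). The adjusted p was 0.205 without Th9 replicate 1, 0.0658 without Th9 replicate 2, 0.161 without Th9+TLA1 replicate 1 and 0.0924 without Th9+TLA1 replicate 2, with log2 fold changes of 1.11 to 1.15. It was 0.0842 with the libraries scaled by their total reads alone.

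The other death-domain receptors passed no test. Tnfrsf1a, which encodes the TNF receptor found on most cells, had 28.0 and 17.4 CPM in Th9 and 21.8 and 23.0 CPM in Th9+TLA1, with overlapping groups and a log2 fold change of 0.11 ± 0.38 (limma, adjusted p 0.925). Tnfrsf10b, the mouse TRAIL receptor with a death domain, had 10.6 and 6.31 CPM in Th9 and 1.34 and 5.84 CPM in Th9+TLA1. Th9+TLA1 replicate 1 was the lowest library and the groups did not overlap, but the log2 fold change of -1.13 ± 0.70 was not called (limma, adjusted p 0.448). Tnfrsf21, which encodes DR6, had 5 reads in Th9 replicate 1, 3 in Th9+TLA1 replicate 2 and 0 in the remaining libraries, and was not tested.

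Tnfsf8, which encodes CD30 ligand, was the called ligand, and its receptor CD30 is encoded by Tnfrsf8, so the pair is described together. Tnfsf8 (Entrez 21949, chromosome 4, 63831202 to 63861508) had 37.4 and 27.8 CPM in Th9 and 71.5 and 93.8 CPM in the Th9+TLA1 libraries. The means were 32.6 ± 6.77 and 82.6 ± 15.8 CPM (SD, n = 2 each), and the groups did not overlap. Tnfsf8 rose 2.66-fold, with a log2 fold change of 1.41 ± 0.28 (limma, adjusted p 0.0329). The adjusted p was 0.110 without Th9 replicate 1, 0.0731 without Th9 replicate 2, 0.0472 without Th9+TLA1 replicate 1 and 0.0988 without Th9+TLA1 replicate 2. With scaling by total reads alone it was 0.0735.

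Tnfrsf8, the CD30 gene (Entrez 21941, chromosome 4, 145267132 to 145315164), had 7.18 and 31.9 CPM in Th9 and 73.5 and 60.0 CPM in the Th9+TLA1 libraries. Both Th9+TLA1 libraries were higher than both Th9 libraries, and Th9 replicate 1 lay far below Th9 replicate 2. The log2 fold change was 2.13 ± 0.53 with a 95% interval from 0.96 to 3.29, and limma did not call it (adjusted p 0.0897). DESeq2 (adjusted p 0.0259) and limma voom (adjusted p 0.0377) on the recovered reads did, and edgeR did not (adjusted p 0.136). The call depended on the libraries used. Without Th9 replicate 2 the log2 fold change was 3.18 with an adjusted limma p of 0.00448, and without Th9 replicate 1 it was 1.09 with an adjusted limma p of 0.307. Without Th9+TLA1 replicate 2 the adjusted p was 0.0343. With low genes filtered again in the 3 libraries left, the adjusted limma p was 0.0772 without Th9 replicate 2, 0.116 without Th9+TLA1 replicate 2 and 0.00747 without Th9+TLA1 replicate 1.

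Tnfrsf26 encodes a receptor that was left outside both classes. The gene (Entrez 244237, chromosome 7, 143607685 to 143627845) had 21.8 and 26.5 CPM in Th9 and 54.4 and 57.8 CPM in the Th9+TLA1 libraries. The groups were separated, with means of 24.1 ± 3.36 and 56.1 ± 2.40 CPM (SD, n = 2 each). The log2 fold change was 1.28 ± 0.30 (limma, adjusted p 0.0732, and 0.0748 with edgeR), and DESeq2 called it (adjusted p 0.0271). Tnfrsf22 and Tnfrsf23 are close relatives of this gene, and reads that fit more than 1 of them could be assigned to any, so the 3 values are uncertain. Tnfrsf22 had 10.1 and 7.26 CPM in Th9 and 7.72 and 6.49 CPM in Th9+TLA1. Tnfrsf23 had 1.73 and 0.631 CPM in Th9 and 4.70 and 10.7 CPM in Th9+TLA1 and passed the filter only through the second group (limma, adjusted p 0.206).

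**Figure D2:**
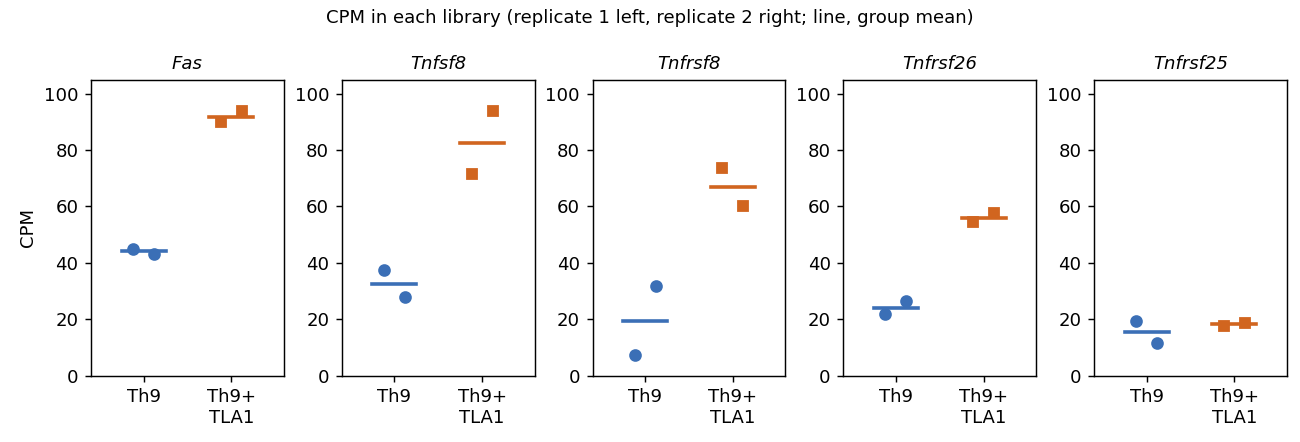
Each panel gives the CPM of 1 gene in the 4 libraries on the same axis, with blue circles for Th9, orange squares for Th9+TLA1 and a line at each group mean. Fas, Tnfsf8, Tnfrsf8 and Tnfrsf26 have no overlap between the groups, Th9 replicate 1 is lowest for Tnfrsf8 (7.18 CPM), and the 2 Tnfrsf25 groups overlap.

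The DNA just before the transcript start is shown for Tnfrsf8 and Fas, which held a match to a motif of a factor that acts downstream of these receptors. Windows of 250 bases before RefSeq starts (GRCm38.p6, the assembly of mm10) were searched on both strands for an NF-kB type motif, GGGA followed by any 4 bases and CC, and for an AP-1 type motif, TGANTCA. The sequences below are read 5′ to 3′ on the gene's strand, with the matches in capitals and any bases inside the annotated gene left off. The Tnfrsf8 window is chr4:145315165-145315414 (minus strand), and the Fas stretch is chr19:34290409-34290646 (plus strand).
Tnfrsf8: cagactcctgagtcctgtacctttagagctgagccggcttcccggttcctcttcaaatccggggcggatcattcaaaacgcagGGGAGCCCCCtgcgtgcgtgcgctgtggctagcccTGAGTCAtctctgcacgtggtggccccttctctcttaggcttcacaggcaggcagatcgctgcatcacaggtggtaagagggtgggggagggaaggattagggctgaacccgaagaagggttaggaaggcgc
Fas: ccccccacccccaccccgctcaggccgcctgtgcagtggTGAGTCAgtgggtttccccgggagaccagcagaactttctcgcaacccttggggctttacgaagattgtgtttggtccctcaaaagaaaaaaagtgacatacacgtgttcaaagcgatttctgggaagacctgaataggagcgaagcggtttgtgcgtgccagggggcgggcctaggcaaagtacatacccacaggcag

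The Tnfrsf8 window held an NF-kB type match starting 167 bases before the transcript start and an AP-1 type match starting 132 bases before it. The Fas window held an AP-1 type match starting 211 bases before the start. The window of Tnfsf8 held neither, and most of it lies inside the annotated gene, so it is not printed. Tnfrsf26 had no window in the table. Of 32851 windows in the table, 17.6% held the NF-kB type motif and 6.75% the AP-1 type motif. Among the 30 windows of the 27 members with one, 8 held the former and 6 the latter. The members with an NF-kB type match were Ltb, Tnfrsf13b, Tnfrsf14, Tnfrsf25, Tnfrsf8, Tnfrsf9, Tnfsf11 and Tnfsf14, of which none was called by limma. Those with an AP-1 type match were Fas, Tnfrsf8, Tnfrsf9, Tnfsf13, Tnfsf13b and Tnfsf14. Of these, Fas was called by limma, Tnfsf13 was not tested and the others were not called. A match is a run of letters in the reference and not a measured binding site.

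Among the 12 TRAF-binding receptors, 8 were tested and 0 were called by limma, with log2 fold changes from -1.28 (Tnfrsf13b) to 2.13 (Tnfrsf8) and a median of 0.28. The genes of the costimulatory receptors OX40, 4-1BB and GITR were the ones with the highest levels. Tnfrsf4, the OX40 gene, had 840 and 1067 CPM in Th9 and 892 and 911 CPM in Th9+TLA1. Tnfrsf9, the 4-1BB gene, had 922 and 1399 CPM in Th9 and 1180 and 1118 CPM in Th9+TLA1. For both genes the Th9+TLA1 values lay between the Th9 values. The log2 fold changes were 0.02 ± 0.19 with a 95% interval from -0.39 to 0.43 for Tnfrsf4 (limma, adjusted p 0.974) and 0.11 ± 0.22 from -0.37 to 0.59 for Tnfrsf9 (limma, adjusted p 0.857).

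Tnfrsf18, the GITR gene, had 504 and 506 CPM in Th9 and 677 and 621 CPM in Th9+TLA1. The groups were separated, and the log2 fold change of 0.45 ± 0.17 had a 95% interval from 0.08 to 0.82, but it was not called (limma, adjusted p 0.214). An antisense gene, Gm16008, overlaps its exons, and the kit did not mark strand, so reads of the pair cannot be told apart. Cd27, a costimulatory receptor of T cells that binds CD70, had 23.3 and 20.5 CPM in Th9 and 34.2 and 24.7 CPM in Th9+TLA1 (log2 fold change 0.48 ± 0.36, limma adjusted p 0.538).

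Tnfrsf1b encodes the second TNF receptor, which lacks a death domain. It had 95.5 and 81.8 CPM in Th9 and 62.4 and 68.2 CPM in Th9+TLA1, separated groups with a log2 fold change of -0.34 ± 0.23 (limma, adjusted p 0.483). Tnfrsf13b, which encodes TACI, a receptor best known from B cells, had 14.1 and 12.3 CPM in Th9 and 2.35 and 8.11 CPM in Th9+TLA1. Its log2 fold change was -1.28 ± 0.61 with an interval from -2.61 to 0.04 (limma, adjusted p 0.315). Cd40, the receptor of CD40 ligand and also best known from B cells and antigen-presenting cells, had 8.91 and 5.05 CPM in Th9 and 17.5 and 7.79 CPM in Th9+TLA1, with overlapping groups (limma, adjusted p 0.518).

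Markers of B cells were read beside these last 2 genes. The 6 markers summed to 12.1 and 14.8 CPM in Th9 and to 40.3 and 40.6 CPM in the Th9+TLA1 libraries. Most of that came from Cd79b (6.19, 12.9, 24.2 and 28.6 CPM, limma adjusted p 0.144) and Ebf1 (1.73, 1.89, 11.4 and 11.4 CPM, limma adjusted p 0.118), and Ebf1 passed the filter only through the second group. The defining markers Ms4a1 and Pax5 were at 0 in all libraries. The part of these genes in the values of Cd40 and Tnfrsf13b was not tested. The 6 regulatory T cell markers summed to 3839 and 3816 CPM in Th9 and to 4387 and 4138 CPM in Th9+TLA1. Most of that sum was Il2ra, which activated T cells also express (2977 and 3137 CPM in Th9, 3599 and 3564 CPM in Th9+TLA1). Foxp3, which encodes the factor that defines regulatory T cells, had 123 and 80.5 CPM in Th9 and 19.1 and 23.0 CPM in Th9+TLA1 and fell by 2.10 on the log2 scale (limma, adjusted p 0.00617). Its adjusted p was 0.111 without Th9 replicate 1 and, with low genes filtered again, 0.0912 without Th9 replicate 2. Of the 5 regulatory T cell markers tested, only Foxp3 was called, where 0.252% of all tested genes were called lower. The other 4 had log2 fold changes of 0.01 (Ctla4), 0.07 (Lrrc32), 0.26 (Ikzf4) and 0.32 (Il2ra). Ikzf2, the remaining marker, was too low to test, with 3.46 and 1.89 CPM in Th9 and 1.34 and 1.30 CPM in Th9+TLA1. Both of its Th9+TLA1 values thus lay below both Th9 values. Regulatory T cells are known for high levels of GITR and OX40, and the part of these markers in the values of Tnfrsf18 and Tnfrsf4 was not tested.

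The remaining TRAF-binding receptors had few reads and were not tested. Tnfrsf13c, the BAFF receptor gene, had 11, 7, 6 and 1 reads in the order Th9 replicates 1 and 2 and Th9+TLA1 replicates 1 and 2. Tnfrsf14, which encodes HVEM, had 11 reads in Th9+TLA1 replicate 1 and 1 in each of the others. Ltbr, the lymphotoxin beta receptor gene of stromal and myeloid cells, had 0 to 3 reads per library, and Tnfrsf11a, which encodes RANK, had 1 read in all.

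Ligands other than Tnfsf8 passed no test. Across the 12 tested ligands the log2 fold changes ran from -0.51 (Tnfsf11) to 1.41 (Tnfsf8), with a median of 0.18, and 8 were above 0. Among the 13 tested receptors they ran from -1.28 to 2.13, with a median of 0.35, and 10 were above 0. The 4 tested death-domain receptors had a median of 0.23, which moved to 0.53 without Th9 replicate 1 and to -0.05 when Th9 replicate 2 was left out. The 8 TRAF-binding receptors had one of 0.28, which was 0.11 without Th9 replicate 1, 0.45 without Th9 replicate 2 and 0.16 without Th9+TLA1 replicate 1. The ligands' median was 0.12 without Th9 replicate 1. These medians lay within the spread of their members, and the differences between the classes were not tested.

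Lta encodes lymphotoxin alpha, which acts as a secreted trimer or on the cell surface together with the product of Ltb. Lta had 759 and 547 CPM in Th9 and 785 and 691 CPM in Th9+TLA1, with overlapping groups and a log2 fold change of 0.29 ± 0.19 (limma, adjusted p 0.481). Ltb had 184 and 156 CPM in Th9 and 179 and 187 CPM in Th9+TLA1 (log2 fold change 0.20 ± 0.18, limma adjusted p 0.643). Tnf, their neighbour and the founding ligand of the family, had 15.6 and 9.47 CPM in Th9 and 13.1 and 12.7 CPM in Th9+TLA1 (0.16 ± 0.47 on the log2 scale, limma adjusted p 0.908). In none of these 3 genes were the groups separated.

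Fasl, the ligand of Fas, did not share the separation of its receptor. It had 16.8 and 47.7 CPM in Th9 and 34.2 and 24.3 CPM in Th9+TLA1. The 2 Th9 libraries enclosed both Th9+TLA1 values, and the log2 fold change of 0.11 ± 0.46 (limma, adjusted p 0.944) had a 95% interval from -0.91 to 1.12. Its sign changed to -0.05 in edgeR and -0.06 in DESeq2. Tnfsf10, which encodes TRAIL, another ligand of death receptors, had 23.5 and 30.3 CPM in Th9 and 19.8 and 26.6 CPM in Th9+TLA1, with overlap (limma, adjusted p 0.912).

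Tnfsf14, which encodes LIGHT, had 9.65 and 10.4 CPM in Th9 and 20.1 and 14.6 CPM in Th9+TLA1, separated groups with a log2 fold change of 0.80 ± 0.45 (limma, adjusted p 0.403). Tnfsf11, which encodes RANK ligand, had 45.5 and 28.4 CPM in Th9 and 26.9 and 20.4 CPM in Th9+TLA1, with a log2 fold change of -0.51 ± 0.35 (limma, adjusted p 0.508). Cd40lg, the helper signal to B cells, had 26.0 and 15.8 CPM in Th9 and 23.8 and 9.09 CPM in Th9+TLA1 (limma, adjusted p 0.791). Of these ligands, the groups overlapped in Cd40lg only.

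Tnfsf9 (4-1BB ligand), Tnfsf4 (OX40 ligand) and Tnfsf13b (BAFF) are ligands best known from antigen-presenting cells. They lay between 1.98 and 18.8 CPM over all libraries, with overlapping groups and limma adjusted p-values of 0.723, 0.901 and 0.848. Exons of Tnfsf9 overlap those of Gm11110, and the 2 genes share reads that cannot be assigned without strand. Cd70, the ligand of CD27, had 0 and 3 reads in Th9 and 3 and 5 in Th9+TLA1. Tnfsf18, which encodes GITR ligand, was at 0 reads in all 4 libraries, which allows up to 0.742 to 1.007 CPM. Tnfsf12 and Tnfsf13 were also listed at 0, but their exons overlap those of a readthrough gene that spans both, and no source used here gives how reads shared between genes were counted, so these zeros do not bound their levels.

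Levels of different genes were compared as CPM per kilobase of annotated exon, which depends on which isoforms are annotated. On that scale the family was dominated by 5 genes. Tnfrsf4 had 680 ± 71.7, Lta 503 ± 77.3, Tnfrsf9 424 ± 72.2, Tnfrsf18 379 ± 56.7 and Ltb 116 ± 9.14 CPM per kilobase (mean ± SD over the 4 libraries). Together they made up 91.0% of the family's summed level. The range of Tnfrsf4 over libraries lay above that of Lta. The ranges of Lta, Tnfrsf9 and Tnfrsf18 overlapped with their neighbours' in this order, so their order is not resolved. Ltb stood apart on both sides, from Tnfrsf18 above and from Fas (32.98 ± 13.4) below. From Fas downward each gene's range overlapped the next. Tnfrsf25 was the 18th of the 35 genes, with 7.42 ± 1.55 CPM per kilobase or 0.321% of the family's sum, beside Tnf (7.75 ± 1.53) and Tnfsf14 (7.42 ± 2.60).

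**Figure D3:**
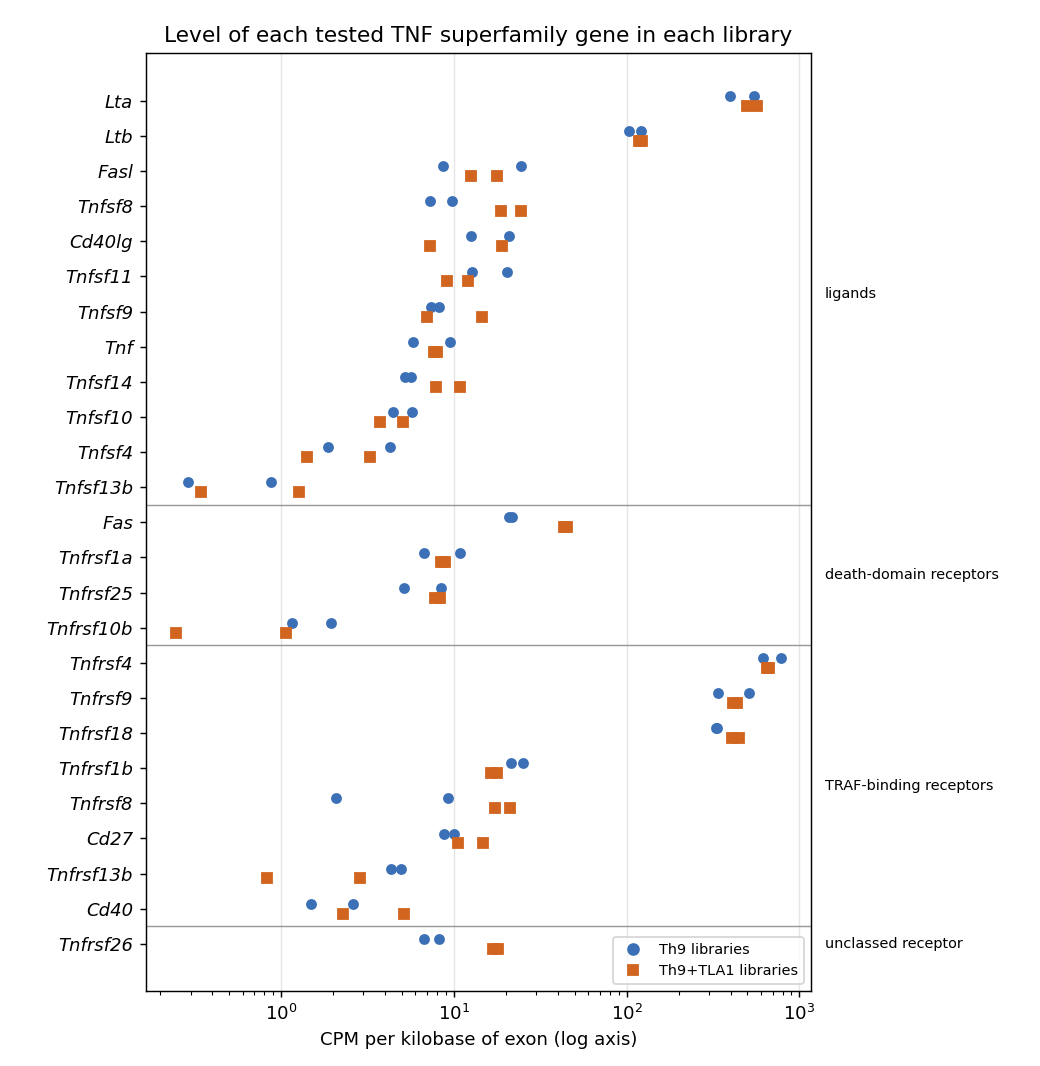
Levels of the 25 tested TNF superfamily genes in CPM per kilobase of exon on a log axis, with blue circles for the 2 Th9 libraries and orange squares for the 2 Th9+TLA1 libraries, grouped by role. Tnfrsf4, Lta, Tnfrsf9, Tnfrsf18 and Ltb lie above 100 CPM per kilobase in every library, and all others lie below 50.

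Receptors outweighed ligands in every library. Their share of the family's summed CPM per kilobase was 64.5% and 74.5% in Th9 and 68.0% and 69.3% in Th9+TLA1, so the groups overlapped. TRAF-binding receptors alone made up 62.2% and 72.7% in Th9 and 64.8% and 65.8% in Th9+TLA1. Death-domain receptors held 2.03% and 1.47% in Th9 and 2.44% and 2.74% in Th9+TLA1. That sum was 43.4 and 33.97 CPM per kilobase in Th9 and 60.1 and 64.0 in Th9+TLA1, and Fas was its main component in every library.

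Setting ligands beside receptors they are known to bind, by a fixed list that is not complete and leaves out Tnfsf12, gave 20 pairs. In 11 of them both sides had over 3 reads in every library. In 5 only the ligand did (Ltb with Ltbr, Tnfsf14 with Tnfrsf14 and with Ltbr, Tnfsf11 with Tnfrsf11a, and Tnfsf13b with Tnfrsf13c). In 4 only the receptor did (Tnfsf15 with Tnfrsf25, Cd70 with Cd27, Tnfsf13 with Tnfrsf13b, and Tnfsf18 with Tnfrsf18), so TL1A and its receptor fell in this last class together with GITR. The zeros listed for Tnfsf13 do not bound its level, so the class of its pair is not settled. Of the 11 pairs with both sides, 6 had the receptor above the ligand per kilobase in the Th9 mean.

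Among those 6 pairs the widest gaps were in OX40 and 4-1BB. Tnfrsf4 was at 699 CPM per kilobase in Th9 and 660 in Th9+TLA1, while its ligand gene Tnfsf4 was at 3.08 and 2.34. Tnfrsf9 was at 426 and 422, while Tnfsf9 was at 7.80 and 10.8. The CD30 pair was nearly even in Th9+TLA1, with Tnfsf8 at 8.56 and Tnfrsf8 at 5.65 CPM per kilobase in Th9 and 21.7 and 19.3 in Th9+TLA1. For Fasl and Fas the levels were 16.6 and 21.4 in Th9 and 15.1 and 44.6 in Th9+TLA1.

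**Figure D4:**
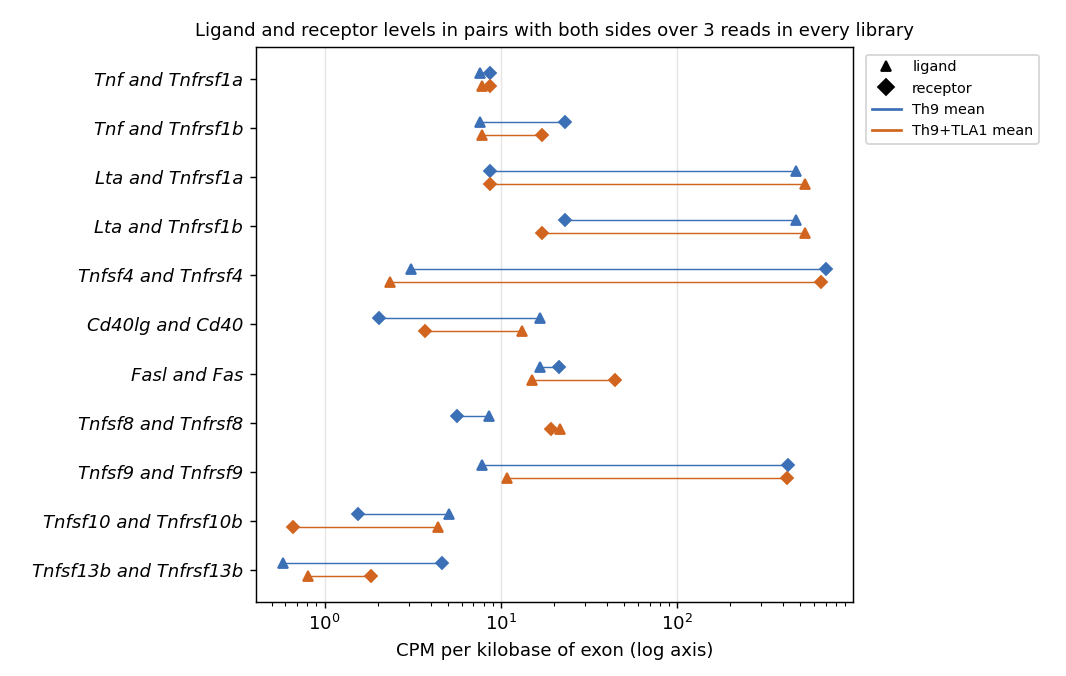
Mean CPM per kilobase of exon on a log axis for the ligand (triangle) and receptor (diamond) of the 11 pairs with over 3 reads on both sides in every library, in Th9 (blue) and Th9+TLA1 (orange), each symbol a mean of 2 libraries. Both symbols of Tnfsf8 and Tnfrsf8 lie further right in Th9+TLA1, and the receptor of Tnfsf4 and Tnfrsf4 lies at 699 against 3.08 for the ligand in Th9.

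The members are grouped in the genome, and 8 clusters with gaps of at most 250000 bases held 19 of the 35. Chromosome 4 held 9 members. Tnfsf8 lies 86142 bases from Tnfsf15, the TL1A gene, which was at or under the floor in every library. Tnfrsf8 lies 20261 bases from Tnfrsf1b, and their log2 fold changes were 2.13 and -0.34. Tnfrsf4 and Tnfrsf18, 9708 bases apart, were both among the 4 members with the highest levels. On chromosome 17, Tnf lies 3061 bases from Ltb and 1157 bases from Lta, and the 3 genes had 7.75, 116 and 503 CPM per kilobase. The 3 log2 fold changes on chromosome 17 were 0.16, 0.20 and 0.29, and none of these neighbours but Tnfsf8 was called by limma.

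Genes that act around these receptors were counted from lists of family relatives, adaptors and NF-kB components. Of 11 further family genes 5 were tested and 0 were called by limma. The one with the highest level per kilobase was Tnfrsf12a, which encodes Fn14, the receptor of TWEAK. It had 6.68 and 2.84 CPM in Th9 and 21.8 and 8.11 CPM in Th9+TLA1 (log2 fold change 1.49 ± 0.63, limma adjusted p 0.262). Of 11 death-signalling genes 0 were called, with a median log2 fold change of -0.02. Casp8, the initiator caspase of death receptors, had 309 ± 59.6 CPM in Th9 and 326 ± 10.2 CPM in Th9+TLA1 (SD, n = 2 each; limma adjusted p 0.676). Of 10 TRAF proteins and adaptors 0 were called (median -0.14), and Traf6, a ubiquitin ligase, had 398 ± 36.9 and 351 ± 47.0 CPM (SD, n = 2 each; limma adjusted p 0.850).

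Among 19 NF-kB kinases, ubiquitin ligases and subunits 0 were called by limma, with a median log2 fold change of -0.13. In 12 of the 19 both Th9+TLA1 libraries lay below both Th9 libraries, where 29.0% of all tested genes did. In 3 both lay above, where 19.1% of all tested genes did. Nfkb2, the subunit of the noncanonical pathway, had 224 ± 16.3 CPM in Th9 and 245 ± 13.97 CPM in Th9+TLA1 (SD, n = 2 each; limma adjusted p 0.584), with overlapping groups. Of the 9 feedback inhibitors 1 was called higher and 0 lower, with a median of 0.53, where 0.891% of all tested genes were called higher. No difference between these lists was tested. The called gene was Tnfaip3, which encodes A20, an inhibitor of signalling downstream of TNF receptors that is itself induced by NF-kB. It had 138 and 137 CPM in Th9 and 378 and 334 CPM in Th9+TLA1. Tnfaip3 rose 2.74-fold (log2 fold change 1.46 ± 0.18, limma adjusted p 0.00316). With low genes filtered again, the adjusted p without Th9 replicate 2 was 0.0772. Nfkbia, the gene of the NF-kB inhibitor IkB-alpha and named after its values were seen, had 493 and 543 CPM in Th9 and 799 and 855 CPM in Th9+TLA1 and was not called (log2 fold change 0.77 ± 0.17, limma adjusted p 0.0590). For Nfkbia the adjusted p was 0.00218 in DESeq2, 0.0374 in limma voom and 0.141 in limma with no filter. With 1 library left out its log2 fold change was 0.65 to 0.89, and whether it was called varied with the library and the filter.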

How the data were processed

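Per the labels' protocols, mouse T cell RNA was isolated with RNeasy kits, and cDNA from the SMARTer Ultra Low Input kit, which does not mark strand, was fragmented for Ion Torrent sequencing. The values the authors deposited are CPM per gene, 1 file per library, for 23480 Entrez identifiers. Listed in the submitters' processing notes are mm10, edgeR and HTSeq 0.5.4. No source used here names the aligner or annotation. Dividing each library's values by the smallest non-zero one gave whole reads for 100% of non-zero values (tolerance 0.01 of a read).

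Symbols and positions came from a RefSeq table of GRCm38.p6, which matched 23383 identifiers, and exon lengths from GENCODE release 21 of the mouse (M21). The filter on low genes was filterByExpr at a minimum count of 10 recovered reads, which kept 10324 genes. After division of the CPM by TMM factors (0.964 to 1.06), limma (lmFit, then eBayes with trend) was run on log2(CPM + 1) with the group as the only term. P-values were adjusted by the Benjamini-Hochberg method over all tested genes, with a threshold of 0.05. Printed CPM are the deposited ones, with 95% intervals from limma. The software was Python 3.11.15 with matplotlib 3.10.9, numpy 2.4.6 and pandas 2.3.3, and R 4.3.3 with DESeq2 1.42.0, edgeR 4.0.16 and limma 3.58.1. The fits were tested on simulated data.

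All 35 members were named. From the lists of related and signalling genes every called gene and otherwise the one with the highest level per kilobase was named; Tnfrsf22, Tnfrsf23 and Nfkbia were named after their values were seen. The members and lists were chosen with earlier results of these data known. No 2 libraries held identical values. Chi-square per degree of freedom between replicates was 12.7 in Th9 and 7.80 in Th9+TLA1, above sampling noise. Amplification also adds to it, so it cannot show whether the libraries are biological replicates. All were counted as replicates because the labels number them so. The alternatives tried were other pseudocounts, scalings and filters, edgeR, DESeq2 and limma voom on the recovered reads, a block for the replicate number, and leaving out each library. Leaving out a library with low genes filtered again was added after seeing the data. Protein sequences were not used here.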

Additional observations from a re-analysis of the deposited data

How the results depend on the processing

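Of 446 log2 fold changes of the 25 tested members under 18 alternatives, 389 kept their direction and their side of the limma threshold, 18 kept the direction and lost the call, 8 gained one and 31 changed sign. The changes of sign were in members that were not called. Fasl went to -0.0546 in edgeR and -0.0605 in DESeq2, and Tnfrsf4 to -0.0709 with total count scaling, which moved the median of all genes from -0.01 to -0.10. Leaving out 1 library moved Cd40lg between -0.999 and 0.32, Fasl between -0.66 and 0.89, Tnf between -0.12 and 0.45, Tnfsf4 between -0.78 and 0.29, Tnfsf9 between -0.0442 and 0.92, Tnfsf10 between -0.34 and 0.11, Tnfsf13b between -0.38 and 1.16, Tnfrsf1a between -0.17 and 0.40, Tnfrsf4 between -0.20 and 0.25 and Tnfrsf9 between -0.24 and 0.46.

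The limma fit called 118 genes over the whole table. Total count scaling called 73, no filter 33 and DESeq2 273, and leaving out 1 library gave 19 to 312. Of the members, 2 were called in that fit, 0 with total count scaling, 0 with no filter, 4 in DESeq2, 3 with limma voom, and 0 to 2 with 1 library left out. With the replicate block 225 genes and 4 members were called, Tnfrsf8 and Tnfrsf26 being added. The deviations of the 2 replicate 1 libraries from their group means had a correlation of -0.011, which gives no sign of pairing. Both replicate 2 libraries also share a code in their deposited names whose meaning is not given, and a shared origin was not tested. The median log2 fold change of the members was 0.19 to 0.40 with 1 library left out. For the TRAF-binding receptors it was 0.17 with no filter, 0.10 with a minimum count of 30 and 0.10 to 0.46 with 1 library left out, and for all receptors 0.17 with no filter. The cause of these changes was not tested. With 2 libraries a group, 10 members were too low to test.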
